A study of Mus musculus with 12 samples.

Results

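The transcripts described here are those of 10 immediate early genes and subunits of the AP-1 transcription factor, measured in mouse heart: Fos, Fosb, Fosl2, Jun, Junb, Jund, Atf3, Egr1, Ier2 and Myc. They were taken by gene symbol after the Ensembl identifiers of the deposited counts had been paired with symbols. The files list 49315 genes, 15476 of them passed the filter on low counts, and all 10 members were among these.

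RNA sequencing was done on heart tissue of wild-type C57BL/6J female mice in 4 groups of 3 libraries. Control diet mice ate a chow with 10% of its energy as fat, and Western diet mice ate a chow with 45% of its energy as fat and 17% as sucrose, a regimen used to induce early metabolic syndrome. After 15 weeks on the diet, part of each diet group was bred and its hearts were taken on day 1 after delivery, here called postpartum. The rest stayed unbred on the same diet as age-matched nonpregnant mice, and all hearts were taken at 27 to 29 weeks of age. No agent or allele was added in any group. The postpartum state combines mating, pregnancy and delivery, and these cannot be told apart. The labels name the tissue as heart without a chamber and do not say whether 1 library is 1 mouse, so p-values measure the spread between these libraries, which may be technical.

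Library totals ranged from 22754591 to 29492416 counts, so 3 counts, the upper limit that a count of 0 allows, stood for 0.102 to 0.132 CPM (counts per 1000000 counts of the library), for counting error only. The 6 cardiomyocyte markers summed to between 61441 and 74561 CPM in every library. Control diet postpartum replicate 1 stands apart for the members: it held the highest level of 5 of the 10, and the main estimates that move with it are given with and without it. It was picked out by these same values, so a member that passes only without it is given as a description. Control diet postpartum replicate 3 had summed white adipocyte markers of 109 CPM against at most 2.49 CPM elsewhere. It also held brown adipocyte markers, with Ucp1 at 73.1 CPM against at most 0.545 CPM elsewhere and Elovl3 at 3.60 against at most 0.129 CPM. Bulk tissue values cannot tell fewer cells of a type from less RNA per cell.

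Immediate early genes are switched on within minutes of a stimulus, without new protein synthesis, by signals that run through mitogen-activated protein kinases, calcium and cyclic AMP. Their best-known products, the FOS and JUN proteins, pair through a leucine zipper to form AP-1, which binds DNA and regulates genes of growth, matrix turnover and inflammation. In the heart these genes respond to stretch, pressure load, hormones and ischemia, and their RNAs are short-lived, so a level reflects the recent past of the tissue.

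The promoters of Fos, Jun and Junb are printed because Fos and Junb were highest, and Jun lowest, in the same library, as described further on. The Fosb window, which overlaps an exon of that gene in the files, held TGACG at -60 and is not printed. Each line holds the 250 bases before the start of the gene in RefSeq on GRCm38.p6, in the direction of transcription, and capitals mark matches to the motifs named next. The windows lie at chr12:85473640-85473889 on the plus strand for Fos, chr4:95052223-95052472 on the minus strand for Jun and chr8:84978749-84978998 on the minus strand for Junb.
Fos: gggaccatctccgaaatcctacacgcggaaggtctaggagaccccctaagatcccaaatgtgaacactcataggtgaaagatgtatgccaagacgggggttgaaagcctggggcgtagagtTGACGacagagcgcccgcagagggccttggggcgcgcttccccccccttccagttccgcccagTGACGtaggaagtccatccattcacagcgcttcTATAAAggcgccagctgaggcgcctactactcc
Jun: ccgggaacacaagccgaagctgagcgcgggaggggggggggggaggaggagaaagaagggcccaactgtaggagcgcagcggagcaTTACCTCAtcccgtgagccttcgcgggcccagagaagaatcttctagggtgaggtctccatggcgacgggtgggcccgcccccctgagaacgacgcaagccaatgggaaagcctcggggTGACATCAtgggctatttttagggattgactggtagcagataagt
Junb: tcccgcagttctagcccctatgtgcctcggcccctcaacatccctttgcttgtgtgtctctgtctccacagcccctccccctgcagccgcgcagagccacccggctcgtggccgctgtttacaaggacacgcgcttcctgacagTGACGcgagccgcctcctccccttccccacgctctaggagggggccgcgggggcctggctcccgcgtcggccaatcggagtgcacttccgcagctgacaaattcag
Both strands were searched for TGACG, the first letters of the cyclic AMP response element, for the AP-1 site TGANTCA, for the TATA box TATAAA, for the CArG box bound by serum response factor, and for TGACATCA and TTACCTCA, AP-1-like elements known from the Jun promoter. The Fos window held TGACG with its first base at positions -129 and -66 from the start, and TATAAA at -33. The Junb window held TGACG at -106. The Jun window held TTACCTCA at -164 and TGACATCA at -45, and no TGACG. No matches overlapped in these windows. Of 32851 RefSeq promoter windows of the same length, 17.8% held TGACG, 6.75% TGANTCA, 12.4% TATAAA, 1.47% a CArG box, 2.93% TGACATCA and 0.728% TTACCTCA. Where no match was found, only those letters are missing from that window: the serum response element of Fos, for example, is known to lie further upstream. Promoter windows were matched for 7 of the 10 members, and Egr1, Ier2 and Myc were not among them. The Atf3 window, not printed, held CGTCA, which is TGACG on the other strand, at -7. The Fosl2 and Jund windows held none of the motifs. Like that of Fosb, the Atf3 and Fosl2 windows overlap exons of their genes in the files. The Jund window ends at 70697738 on chromosome 8, whereas Jund starts at 70698949 in the files, so it does not adjoin that start. In control diet postpartum replicate 1, Jund ranked 2, Atf3 3 and Fosl2 5 among the libraries. Whether these matches bear on the levels was not tested.

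Levels between genes were compared per length, as RPKM, the CPM per kilobase of exon. In control diet nonpregnant hearts, Jund was the most abundant member at 45.2 RPKM ± 4.94 (SD, n = 3), followed by Jun at 23.6 ± 3.62 (SD, n = 3). Ier2 at 10.5 ± 1.80 (SD, n = 3) and Junb at 10.3 ± 2.0 (SD, n = 3) overlapped in range, as did Egr1 at 3.51 ± 0.360 (SD, n = 3) and Fosl2 at 2.92 ± 0.225 (SD, n = 3). Atf3 followed at 1.96 RPKM ± 0.632 (SD, n = 3). Fos at 1.18 ± 0.396 (SD, n = 3) and Myc at 0.995 ± 0.445 (SD, n = 3) overlapped, and Fosb was lowest at 0.0584 RPKM ± 0.0357 (SD, n = 3). Of the FOS family genes among the members, Fosl2 had the highest level in this group, above every library of Fos and Fosb. Fosl1, another gene of that family, was not compared per length.

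**Figure D1:**
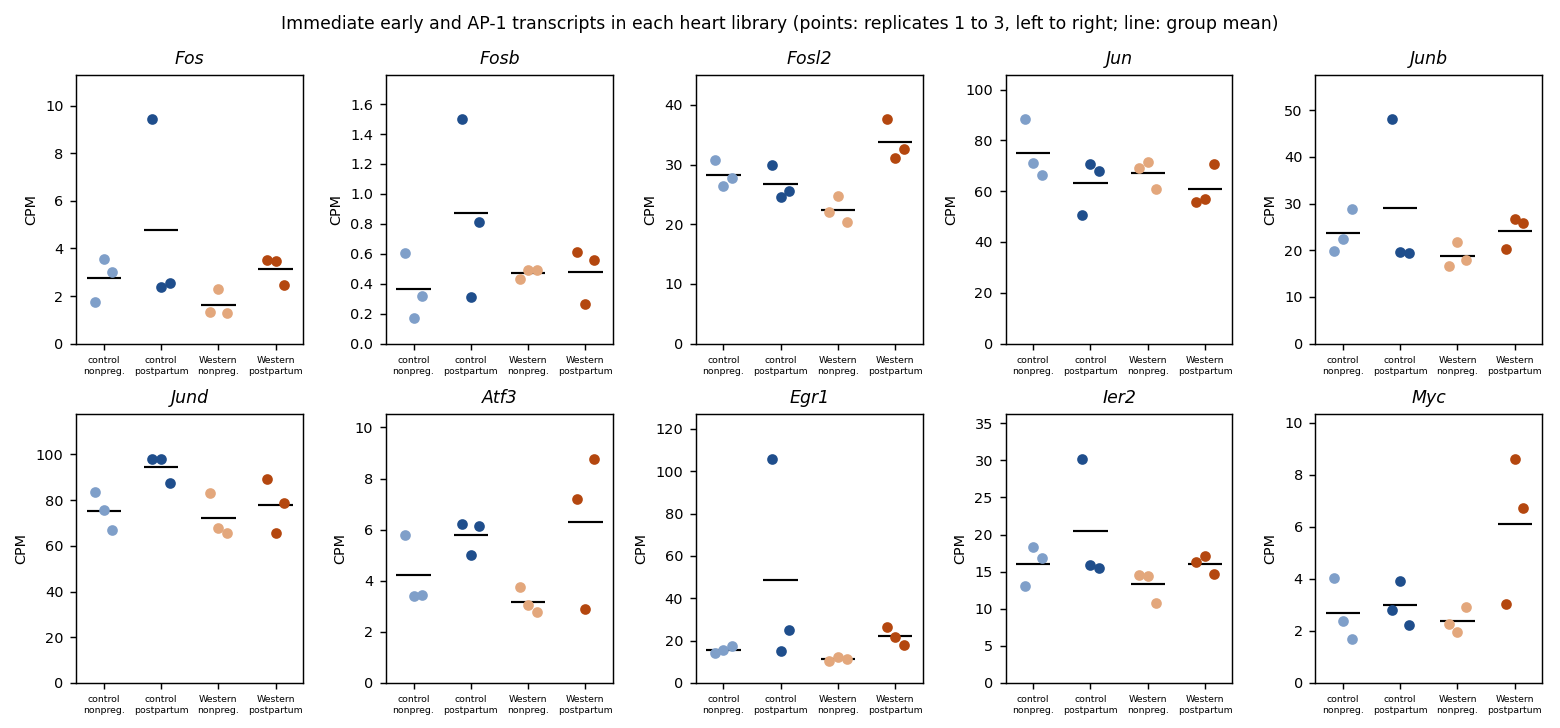
CPM of the 10 members (y axis, linear from 0) in each library, by diet and pregnancy state (x axis); points are replicates 1 to 3 from left to right and lines are group means. The first control diet postpartum library lies far above all others for Egr1 (106 CPM), Fos (9.43), Junb (48.0) and Ier2 (30.2), whereas the 3 Western diet postpartum libraries of Fosl2 lie together at 31.2 to 37.6 CPM.

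Fos encodes the founding AP-1 partner of the JUN proteins (ENSMUSG00000021250, chromosome 12, 85473890 to 85477273, GRCm38). It stood at 1.75, 3.57 and 3.0 CPM in control diet nonpregnant replicates 1 to 3, and at 9.43, 2.36 and 2.57 CPM in the postpartum replicates of that diet. On the Western diet it stood at 1.33, 2.31 and 1.27 CPM in nonpregnant and at 3.51, 3.46 and 2.48 CPM in postpartum hearts. The control diet groups overlapped, and postpartum replicate 1 was the only one above its nonpregnant range. The Western diet groups did not overlap, with every postpartum library higher. The log2 fold change on the Western diet was 0.94 ± 0.50 (SE), which did not pass (edgeR quasi-likelihood F test, Benjamini-Hochberg adjusted p = 0.409). In the fit without control diet postpartum replicate 1 the Western diet value was 0.94 ± 0.29 and did not pass either (edgeR adjusted p = 0.163). On the control diet the log2 fold change was 0.80 ± 0.45 (edgeR adjusted p = 0.501), and without postpartum replicate 1 it turned to -0.15 ± 0.31 (edgeR adjusted p = 0.919).

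Fosb, which encodes a FOS relative known for its long-lived splice form in neurons, was near the detection limit (ENSMUSG00000003545, chromosome 7, 19302696 to 19310051). Its 4 to 44 counts per library gave 0.607, 0.168 and 0.318 CPM in control diet nonpregnant hearts and 1.5, 0.310 and 0.812 CPM postpartum. Western diet hearts held 0.429, 0.492 and 0.493 CPM when nonpregnant and 0.613, 0.263 and 0.557 CPM postpartum. All groups overlapped. The control diet estimate of 1.23 ± 0.52 (SE, log2 scale) did not pass (edgeR quasi-likelihood F test, adjusted p = 0.353) and was 0.61 ± 0.52 without postpartum replicate 1 (edgeR adjusted p = 0.769).

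Fosl2, the gene of the AP-1 subunit FRA-2, was the only member that passed the threshold in any of the 8 comparisons (ENSMUSG00000029135, chromosome 5, 32135801 to 32157842). It stood at 22.1, 24.7 and 20.3 CPM in Western diet nonpregnant hearts and at 37.6, 31.2 and 32.7 CPM in Western diet postpartum hearts, with no overlap. Control diet hearts held 30.7, 26.5 and 27.7 CPM when nonpregnant and 29.9, 24.6 and 25.7 CPM postpartum, and these groups overlapped. Fosl2 rose by 0.60 ± 0.10 on the log2 scale (SE), or 1.51-fold, from nonpregnant to postpartum on the Western diet (edgeR quasi-likelihood F test, Benjamini-Hochberg adjusted p = 0.0271). The call was lost when any of Western diet nonpregnant replicates 1, 2 or 3 or postpartum replicates 1 or 3 was left out, fits that called 0 to 7 of all genes in this comparison. Over the 12 fits that each left out 1 library, the log2 fold change ranged from 0.51 to 0.67 and the edgeR adjusted p from 0.00769 to 0.118. The 2 nonpregnant groups also did not overlap, the Western diet group being the lower by an estimate of -0.34 ± 0.10 that did not pass (edgeR adjusted p = 0.309). Postpartum, the Western diet libraries were all above those of the control diet, with an estimate of 0.34 ± 0.10 (edgeR adjusted p = 0.119). The difference between the postpartum changes on the 2 diets, tested as the interaction, was 0.68 ± 0.14 and did not pass (edgeR adjusted p = 0.357), although its unadjusted p of 0.000289 ranked 11 of the 15476 genes. Fosl2 was among the steadier members, with an SD within groups of 0.14 on the log2 scale against a median of 0.15 over all tested genes.

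Jun, the gene of c-JUN, the founding JUN subunit, was lowest in the library where Fos was highest (ENSMUSG00000052684, chromosome 4, 95049034 to 95052222). Control diet nonpregnant hearts held 88.3, 71.1 and 66.3 CPM and postpartum hearts 50.5, 70.8 and 67.9 CPM. Western diet hearts held 69.3, 71.7 and 61.0 CPM when nonpregnant and 55.6, 56.7 and 70.7 CPM postpartum. All 4 groups overlapped. Jun was the member with negative postpartum estimates on both diets, at -0.26 ± 0.14 and -0.14 ± 0.14 (SE, log2 scale), neither of which passed (edgeR quasi-likelihood F test, adjusted p = 0.467 and 0.676). The first was -0.11 ± 0.13 without control diet postpartum replicate 1 (edgeR adjusted p = 0.832).

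Junb, whose product pairs with FOS proteins and often opposes c-JUN, stood at 19.8, 22.4 and 28.8 CPM in control diet nonpregnant hearts and at 48.0, 19.7 and 19.3 CPM postpartum (ENSMUSG00000052837, chromosome 8, 84974484 to 84978718). In Western diet hearts it stood at 16.7, 21.8 and 18 CPM when nonpregnant and at 20.2, 26.6 and 25.8 CPM postpartum. Postpartum replicate 1 of the control diet was the highest of all 12, and the other postpartum libraries of that diet were just below the nonpregnant range. The control diet estimate was 0.30 ± 0.28 (SE, log2 scale, edgeR adjusted p = 0.719) with that library and -0.27 ± 0.16 (edgeR adjusted p = 0.639) without it. On the Western diet the estimate was 0.36 ± 0.29 (edgeR adjusted p = 0.600), and 0.36 ± 0.14 (edgeR adjusted p = 0.270) in the fit without that control diet library.

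Jund, the gene of the JUN subunit that is made without a stimulus in most cells, varied least in fold terms, by 1.5-fold between its lowest and highest library (ENSMUSG00000071076, chromosome 8, 70698949 to 70700616). Control diet nonpregnant hearts held 83.5, 75.9 and 67.0 CPM and postpartum hearts 98.1, 98.2 and 87.4 CPM, all above the nonpregnant range. Western diet hearts held 83.0, 67.7 and 65.5 CPM when nonpregnant and 89.1, 65.7 and 78.6 CPM postpartum, and overlapped. The control diet difference of 0.32 ± 0.12 (SE, log2 scale) did not pass (edgeR quasi-likelihood F test, adjusted p = 0.272) and was 0.30 ± 0.13 without postpartum replicate 1.

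Atf3, a stress-induced partner of JUN proteins, stood at 5.79, 3.40 and 3.45 CPM in control diet nonpregnant hearts and at 6.23, 5.0 and 6.14 CPM postpartum (ENSMUSG00000026628, chromosome 1, 191170296 to 191218039). On the Western diet it stood at 3.74, 3.03 and 2.78 CPM in nonpregnant and at 7.19, 2.89 and 8.78 CPM in postpartum hearts. Western diet postpartum replicate 2 lay within the nonpregnant range while replicates 1 and 3 were the highest of all 12 libraries. The Western diet difference of 0.99 ± 0.32 (SE, log2 scale) did not pass (edgeR quasi-likelihood F test, adjusted p = 0.174), and was 1.33 without replicate 2 (edgeR adjusted p = 0.00769). DESeq2 called it with all libraries (adjusted p = 0.0490).

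Egr1 encodes a zinc finger factor that is not part of AP-1 but shares its inducing signals (ENSMUSG00000038418). Control diet nonpregnant hearts held 14.2, 15.6 and 17.4 CPM and postpartum hearts 106, 15.0 and 25.2 CPM. Western diet hearts held 10.3, 12.2 and 11.2 CPM when nonpregnant and 26.5, 21.7 and 17.9 CPM postpartum, with no overlap. Control diet postpartum replicate 1 was 4.0-fold above the next highest and 6.80-fold above the median of the other 11. The control diet difference was 1.64 ± 0.50 (SE, log2 scale, edgeR quasi-likelihood F test, adjusted p = 0.206) with this library and 0.37 ± 0.19 (edgeR adjusted p = 0.597) without it. It was 2.07 without postpartum replicate 2, where it passed (edgeR adjusted p = 0.0496). The Western diet difference was 0.97 ± 0.52 (edgeR adjusted p = 0.420) in the fit of all libraries. In the fit without control diet postpartum replicate 1, where the spread estimated for Egr1 was smaller, the same difference was 0.97 ± 0.18 and passed (edgeR adjusted p = 0.0366). That library was picked by its values of Egr1 and other members, so the pass rests on that choice.

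Ier2, which encodes a small nuclear early response protein, stood at 13.0, 18.3 and 16.8 CPM in control diet nonpregnant hearts and at 30.2, 15.9 and 15.5 CPM postpartum (ENSMUSG00000053560, chromosome 8, 84661331 to 84662852). On the Western diet it stood at 14.6, 14.5 and 10.7 CPM in nonpregnant and at 16.3, 17.2 and 14.6 CPM in postpartum hearts. The Western diet groups did not overlap, but their closest libraries both rounded to 14.6 CPM. The estimates were 0.36 ± 0.22 on the control diet and 0.28 ± 0.23 on the Western diet (SE, log2 scale, edgeR adjusted p = 0.536 and 0.614). Without control diet postpartum replicate 1 the first became -0.03 ± 0.15 (edgeR adjusted p = 0.971).

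Myc, the gene of the growth-promoting factor MYC, stood at 4.04, 2.40 and 1.68 CPM in control diet nonpregnant hearts and at 2.79, 3.92 and 2.24 CPM postpartum (ENSMUSG00000022346, chromosome 15, 61985391 to 61990374). Western diet hearts held 2.28, 1.97 and 2.92 CPM when nonpregnant and 3.02, 8.62 and 6.72 CPM postpartum. Western diet postpartum replicates 2 and 3 were the highest of all 12 libraries, and replicate 1 was just above the nonpregnant range. The Western diet difference of 1.35 ± 0.36 (SE, log2 scale), or 2.55-fold, did not pass in edgeR (quasi-likelihood adjusted p = 0.111), and DESeq2 called it (adjusted p = 0.00966). Against control diet nonpregnant hearts the Western diet postpartum difference was 1.15 ± 0.36 (edgeR adjusted p = 0.105), and 1.58 without control diet nonpregnant replicate 1, where it passed (edgeR adjusted p = 0.0484). Within the Western diet postpartum group, replicate 2 was lowest for Atf3 and highest for Myc.

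The comparisons below count these members against all tested genes. On the control diet, comparing postpartum with nonpregnant hearts, none of the 10 members passed, beside 37 genes, or 0.239% of all tested (edgeR quasi-likelihood F test, Benjamini-Hochberg adjusted p under 0.05). At an unadjusted p under 0.05 there were 3 members, Fosb, Jund and Egr1, beside 12.5% of all genes, and DESeq2 called 0 members. Estimates were positive for 8 of 10 members and for 48.2% of all genes, with a median of 0.34 against -0.01 (log2). Without postpartum replicate 1, 5 of 10 were positive and the median was 0.06. Only Jund did not overlap and was higher, beside 8.12% of all genes. Some marker sums did not overlap here either: the 7 fibroblast markers summed to 844 to 1048 CPM in postpartum and 579 to 766 CPM in nonpregnant hearts, the 6 macrophage markers to 189 to 213 against 137 to 173 CPM, and, narrowly, the 6 endothelial markers to 1307 to 1422 against 1245 to 1305 CPM. The fibroblast markers did not all move together. In postpartum replicates 1 and 3, Col3a1 stood at 313 and 373 CPM (76.2 to 373 over the 12 libraries), with Col1a1 and Lum also near their highest levels. Dcn stood at 419 and 384 CPM (341 to 480) and Pdgfra at 43.7 and 46.4 CPM (36.6 to 49.0), and Tcf21 was lowest of all in replicate 1 at 5.52 CPM. The share of counts from mitochondrial genes was 19.2% to 19.4% against 19.8% to 20.2%. Their part in the members' values was not tested.

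On the Western diet, 1 of 10 members, Fosl2, passed postpartum against nonpregnant, beside 91 genes or 0.588% of all tested (edgeR), and 0.355% passed as higher. Estimates were positive for 9 of 10 members and 49.3% of all genes, with a median of 0.48 against -0.00263 (log2). Fos, Fosl2, Egr1, Ier2 and Myc did not overlap and were higher, 5 of 10 members beside 10.1% of all genes. At an unadjusted p under 0.05 there were 3 members, Fosl2, Atf3 and Myc, beside 14.7% of all genes. The fit without control diet postpartum replicate 1, a library of neither group, had 6 such members, with Fos, Junb and Egr1 added. Of these, 2 passed, Fosl2 and Egr1 (edgeR adjusted p = 0.0208 and 0.0366), beside 78 of 15737 genes in that fit. Its share of all genes under the unadjusted p was not counted, and the library left out was picked by the members' own values. Here fibroblast markers overlapped between the groups, at 748 to 846 CPM postpartum and 773 to 818 CPM in nonpregnant hearts, as did macrophage markers at 175 to 202 and 151 to 179 CPM. The 6 lymphocyte markers did not overlap, at 1.35 to 1.71 CPM postpartum and 2.18 to 3.35 CPM in nonpregnant hearts, and their part was not tested.

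**Figure D2:**
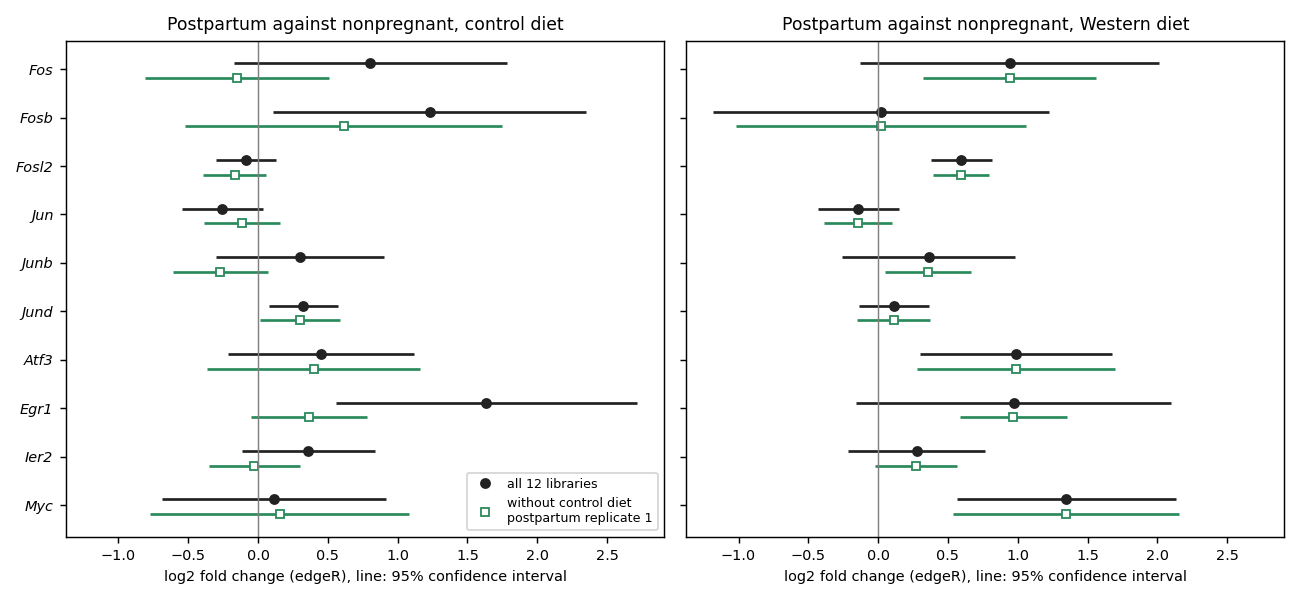
Log2 fold change of each member, postpartum against nonpregnant, on the control diet (left) and the Western diet (right), from the edgeR fit of all 12 libraries (filled circles) and of 11 libraries without control diet postpartum replicate 1 (open squares), with 95% confidence intervals as lines. On the left Egr1 moves from 1.64 to 0.37 and Fos from 0.80 to -0.15; on the right Fosl2 stays at 0.60 and 0.59.

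Averaged over the 2 diets, 0 of 10 members passed postpartum against nonpregnant, beside 276 genes or 1.78% of all tested (edgeR). At an unadjusted p under 0.05 there were 6 members, beside 17.6% of all genes. All 6 had positive estimates, beside 9.08% of all genes with such a p and a positive estimate. Egr1 had the highest at 1.30 ± 0.36 (SE, log2 scale, edgeR adjusted p = 0.0859), followed by Fos at 0.87 ± 0.34 (edgeR adjusted p = 0.195), Myc at 0.73 ± 0.26 and Atf3 at 0.72 ± 0.22 (edgeR adjusted p = 0.162 and 0.114). Fosl2 at 0.26 ± 0.07 (edgeR adjusted p = 0.0819) and Jund at 0.22 ± 0.08 (edgeR adjusted p = 0.181) had small estimates with small errors. DESeq2 called 2 of them, Fosl2 (adjusted p = 0.0316) and Atf3 (adjusted p = 0.0273). Without control diet postpartum replicate 1, Egr1 was at 0.67 ± 0.13 and passed (edgeR adjusted p = 0.0361), while Fos was at 0.40 ± 0.21 (edgeR adjusted p = 0.399). That fit, without a library picked by the members' own values, called 174 of 15737 genes. Egr1 also passed without control diet postpartum replicate 2, at 1.52 (edgeR adjusted p = 0.0248). Fosl2 passed at 0.29 without control diet nonpregnant replicate 1 (edgeR adjusted p = 0.0495), and Atf3 passed at 0.89 without Western diet postpartum replicate 2 (edgeR adjusted p = 0.00928).

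The diet comparison in nonpregnant hearts called no member, beside 9 genes or 0.0582% of all tested (edgeR). Of 10 estimates, 9 were negative, Fosb being the exception, where 49.9% of all genes were positive, and the median was -0.30 (log2). Without control diet nonpregnant replicate 1, 3 of 10 were positive and the median was -0.19. At an unadjusted p under 0.05 there was 1 member, Fosl2, beside 9.58% of all genes, and DESeq2 called 0 members. The fit without control diet postpartum replicate 1, a library of neither group, had 4 such members: Fos, Fosl2, Junb and Egr1. All 4 estimates were negative and none passed (edgeR adjusted p = 0.306 to 0.524), where 0 of 15737 genes passed. The share of all genes under the unadjusted p was not counted for that fit. Fosl2 and Egr1 did not overlap and were lower on the Western diet, beside 7.84% of all genes. Endothelial markers summed to 1364 to 1575 CPM on the Western diet and 1245 to 1305 CPM on the control diet, the 7 fibroblast markers to 773 to 818 and 579 to 766 CPM, the 4 atrial markers to 30.8 to 55.6 and 63.2 to 87.7 CPM, and the 3 brown adipocyte markers to 26.1 to 29.0 and 16.4 to 25.7 CPM. The atrial sum was nearly all Nppa, with Myl4 at most 2.18, Myl7 at most 0.194 and Sln at most 0.123 CPM in any library. Outside control diet postpartum replicate 3, the brown adipocyte sum was nearly all Cidea, with Ucp1 at most 0.545 and Elovl3 at most 0.129 CPM. Mitochondrial shares were 20.4% to 21.2% and 19.8% to 20.2%. Their part in the members' values was not tested.

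Postpartum, the Western against the control diet called no member, beside 136 genes or 0.879% of all tested (edgeR). At an unadjusted p under 0.05 there were 4 members, beside 14.6% of all genes: Fosl2 and Myc with positive estimates, Egr1 and Jund with negative ones. DESeq2 called 0 members. Myc was at 1.04 ± 0.35 (SE, log2 scale, edgeR adjusted p = 0.186) and Jund at -0.28 ± 0.12 (edgeR adjusted p = 0.272). The estimate of Egr1 rested on 1 library, at -1.15 ± 0.49 (edgeR adjusted p = 0.296) with control diet postpartum replicate 1 and 0.12 ± 0.19 (edgeR adjusted p = 0.861) without it. Fos likewise went from -0.61 ± 0.45 to 0.35 ± 0.30 (edgeR adjusted p = 0.593 and 0.727). Fosl2 alone did not overlap and was higher, beside 9.86% of all genes. The share of counts from mitochondrial genes was 20.5% to 21.5% in the Western diet postpartum libraries and 19.2% to 19.4% in those of the control diet. Endothelial markers summed to 1565 to 1643 against 1307 to 1422 CPM. Atrial markers, nearly all Nppa, summed to 44.3 to 62.6 against 86.6 to 101 CPM, and lymphocyte markers to 1.35 to 1.71 against 1.77 to 2.60 CPM. The part of these in the members' values was not tested.

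Western diet postpartum hearts against control diet nonpregnant hearts, the groups farthest apart in design, gave no call among the members beside 406 genes or 2.62% of all tested (edgeR). At an unadjusted p under 0.05 there were 3 members, beside 18.2% of all genes: Fosl2 at 0.26 ± 0.10, Myc as given above, and Jun at -0.30 ± 0.14 (SE, log2 scale, edgeR adjusted p = 0.189 for Fosl2 and 0.256 for Jun). Fosl2 and Egr1 did not overlap and were higher, beside 10.3% of all genes. Atf3, at 0.57 ± 0.31 with all libraries (edgeR adjusted p = 0.367), passed at 0.91 without Western diet postpartum replicate 2 (edgeR adjusted p = 0.0338). Macrophage markers, at 175 to 202 against 137 to 173 CPM, and endothelial markers, at 1565 to 1643 against 1245 to 1305 CPM, did not overlap either. Nor did atrial markers (nearly all Nppa) at 44.3 to 62.6 against 63.2 to 87.7 CPM, brown adipocyte markers (nearly all Cidea) at 28.3 to 31.1 against 16.4 to 25.7 CPM, and mitochondrial shares at 20.5% to 21.5% against 19.8% to 20.2%. Their part was not tested.

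The interaction of diet and pregnancy called no gene at all, 0% of those tested (edgeR), beside 1390 genes or 8.98% at an unadjusted p under 0.05, and DESeq2 called 43 genes and 0 members. Fosl2 and Myc were the members under that unadjusted p, and Myc stood at 1.24 ± 0.52 (SE, log2 scale, edgeR adjusted p = 0.513). Without control diet postpartum replicate 1 the members under it were 4: Fos, Fosl2, Junb and Egr1. All 4 had positive estimates, where that of Egr1 was negative with this library, and none passed (edgeR adjusted p = 0.581 to 0.653). Of all 15737 genes in that fit 0 passed, and their share under the unadjusted p was not counted. Myc, at 1.19 ± 0.57, was then no longer under that unadjusted p (edgeR adjusted p = 0.679). The postpartum differences of the members were not shown to differ between the diets. The diet effect averaged over pregnancy states called 0 members beside 214 genes or 1.38% of all tested (edgeR), and DESeq2 called 0 members. Egr1 was the 1 member with an unadjusted p under 0.05, beside 14.3% of all genes, at -0.81 ± 0.36 with and -0.18 ± 0.13 without control diet postpartum replicate 1 (edgeR adjusted p = 0.325 and 0.630).

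Control diet postpartum replicate 1 was the highest of 12 libraries for Fos, Fosb, Junb, Egr1 and Ier2 and the lowest for Jun. It was the highest for 8.48% of all tested genes. The excess over the next highest library was 2.64-fold for Fos, 1.85-fold for Fosb, 1.67-fold for Junb and 1.65-fold for Ier2. Other early genes split in the same library. Egr2, a relative of Egr1, stood at 5.72 CPM against 0.210 to 0.853 CPM in the others, and Egr3 at 1.84 against 0.472 to 0.942 CPM. Zfp36, whose product degrades AU-rich early mRNAs, stood at 43.2 against 20.2 to 33.2 CPM. By contrast Socs3, a feedback inhibitor of cytokine signalling, was lowest of all at 3.95 against 4.34 to 11.4 CPM, as were Ier3 at 23.7 against 25.3 to 58.2 CPM and Nr4a2 at 1.02 against 1.06 to 2.06 CPM. These genes were chosen after their values were seen. Of the other immediate early transcription factors, 5 of 18 were highest in this library, and of the early feedback inhibitors and effectors 6 of 27. Its summed macrophage markers, 213 CPM, were above the 137 to 209 CPM of the others, and the other 10 marker lists lay within the range of the others. Its cardiomyocyte sum was 68977 CPM, its total 28688379 counts and its mitochondrial share 19.2%, the lowest by a small margin. Their part in its early gene levels was not tested.

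Within groups, Egr1 had a larger SD of log2 CPM than 99.1% of tested genes, Fosb than 98.6%, Fos than 98.2% and Myc than 95.8%. Atf3 stood at the percentile 93.7, Junb at 90.0 and Ier2 at 82.2. Jun (64.4), Jund (56.8) and Fosl2 (46.1) were close to the middle of all genes. Without control diet postpartum replicate 1, Egr1 stood at 74.8, Fos at 88.3, Junb at 66.4 and Ier2 at 63.8, while Myc (96.7) and Atf3 (94.8) stayed high.

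**Figure D3:**
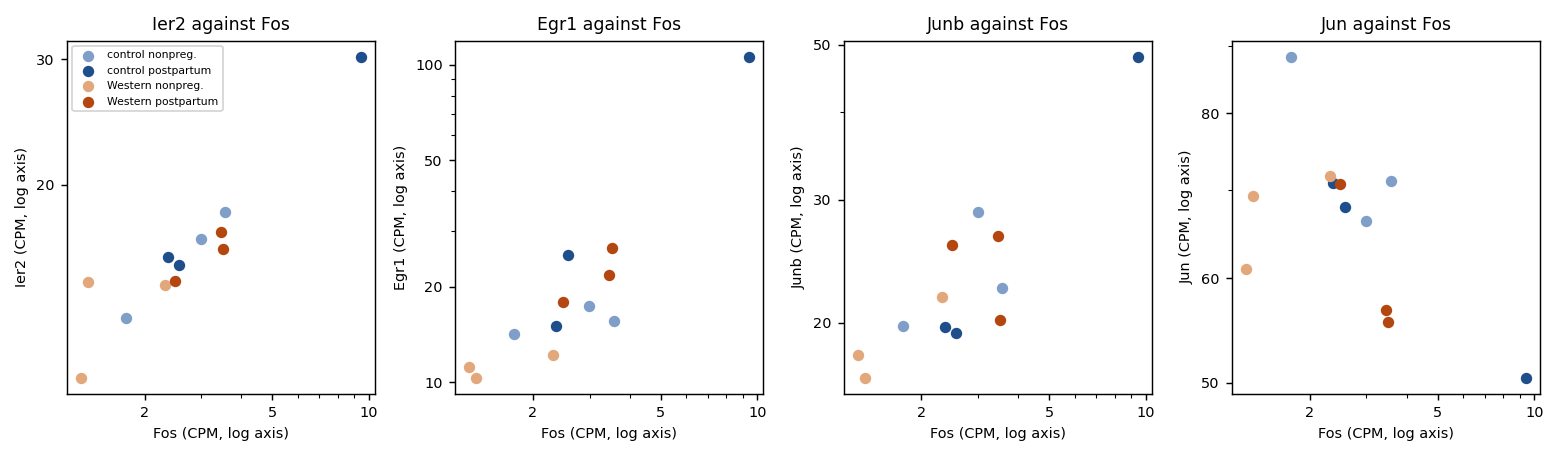
CPM of Ier2, Egr1, Junb and Jun (y axes, log scale) against CPM of Fos (x axes, log scale), 1 point per library, coloured by group. Ier2 follows Fos along the whole range (Pearson r = 0.94 on log2 values), the point at upper right is control diet postpartum replicate 1, and Jun lies lowest in that library.

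Fos was correlated with each of the other 9 members over the 12 libraries on log2 CPM. Ier2 tracked it most closely, with Pearson r = 0.94 and Spearman rho = 0.94 (permutation test, 100000 resamples, two-sided, p = 3.00e-05 and 5.00e-05, Benjamini-Hochberg adjusted over 9 relations 0.000270 and 0.000450). Egr1 followed with r = 0.91 and rho = 0.85 (permutation p = 0.000250 and 0.000990, adjusted 0.00112 and 0.00445), and Junb with r = 0.87 and rho = 0.73 (permutation p = 0.000730 and 0.00869, adjusted 0.00219 and 0.0261). Without the 2 libraries farthest from the median of Fos, control diet postpartum replicate 1 and Western diet nonpregnant replicate 3, r was 0.80 for Ier2, 0.72 for Egr1 and 0.62 for Junb. Groups share part of this relation, so deviations from the group means were taken as well: r was 0.93 for Ier2 and 0.87 for Egr1 (exact permutation within groups, adjusted p = 0.0278 for both) and 0.85 for Junb (adjusted p = 0.134, not past the threshold). Without control diet postpartum replicate 1 the deviations gave r = 0.79 for Ier2, 0.50 for Egr1 and 0.46 for Junb. Jun ran the other way at r = -0.62 and rho = -0.45 (permutation p = 0.0360 and 0.140, adjusted 0.0811 and 0.252), which did not pass, with r = -0.62 without the 2 farthest libraries and -0.34 without control diet postpartum replicate 1 alone. Its deviations from group means gave r = -0.74, and -0.48 without that library. The r of Fosl2 was 0.55 with rho = 0.59 (permutation p = 0.0603 and 0.0463, adjusted 0.109 and 0.104) and 0.53 without the 2 farthest. Fosb, Jund, Atf3 and Myc had r between 0.04 and 0.35, none of which passed (permutation, adjusted p = 0.353 to 0.893). The r of Fosb turned from 0.34 to -0.36 without control diet postpartum replicate 1, that of Jund went from 0.35 to 0.01 and that of Atf3 from 0.29 to 0.16.

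Among 12100 tested genes with a mean of at least 1 CPM, the genes outside the members whose log2 CPM followed Fos most closely over the 12 libraries were Zfp36 (r = 0.89), Pdhb (0.88), Umps (0.85), Smug1 (0.84), Ccdc51 (0.82), Tm9sf1 (0.82), Dicer1 (0.81), Eif2s1 (0.81), Gipc1 (0.81) and Slc25a25 (0.80). All 10 were highest in the same library as Fos, without which their r was 0.64 to 0.80, and these values are a description that shares its libraries and depth. Ier2, Egr1 and Junb, as members, were not ranked.

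The genes that AP-1 and MYC are known to act on, and those that act on the members, were counted in 7 lists. The lists were chosen with earlier results of these data known, so their counts and medians beside all genes are a description only. Whether AP-1 or MYC acted on these genes here was not tested. Of 14 tested AP-1 target genes, 6 rose postpartum when averaged over the diets and 0 fell (edgeR, beside 1.03% of all genes that passed as higher), with a list median of 0.50 on the log2 scale against -0.00113 over all genes. Thbs1, the gene of the matrix glycoprotein thrombospondin-1, stood at 5.10 ± 0.448 CPM in nonpregnant and 14.6 ± 7.65 CPM in postpartum hearts on the control diet (SD, n = 3), and at 4.01 ± 0.681 and 14.8 ± 3.16 CPM on the Western diet. It rose by 1.70 ± 0.21 (SE, log2 scale, edgeR adjusted p = 0.00518). Tnc, the gene of the matrix protein tenascin-C, stood at 1.21 ± 0.218 and 3.39 ± 1.12 CPM on the control diet while Western diet hearts held 1.13 ± 0.0785 and 3.60 ± 1.04 CPM (SD, n = 3), a rise of 1.59 ± 0.19 (edgeR adjusted p = 0.00518). Both calls held in all 12 fits that left out 1 library. Nppb, the gene of the natriuretic peptide BNP, rose by 1.63 ± 0.31 (edgeR adjusted p = 0.0229), from 107 ± 37.9 CPM in nonpregnant to 250 ± 72.8 CPM in postpartum hearts on the control diet and on the Western diet from 93.5 ± 30.9 to 386 ± 247 CPM (SD, n = 3). Spp1, the gene of osteopontin, rose by 1.35 ± 0.28 at most 1.17 CPM in any library, Ccl2, a monocyte chemokine, by 1.10 ± 0.22, and Hmox1, heme oxygenase 1, by 0.51 ± 0.11 (edgeR adjusted p = 0.0314, 0.0260 and 0.0422). Over the fits that left out 1 library, these 4 calls were less steady, with adjusted p up to 0.0989. Nppb was lost without control diet nonpregnant replicates 2 or 3, control diet postpartum replicate 3, Western diet nonpregnant replicate 2 or Western diet postpartum replicate 1. Ccl2 was lost without control diet nonpregnant replicate 2, control diet postpartum replicate 3, Western diet nonpregnant replicates 2 or 3 or Western diet postpartum replicate 1. Spp1 was lost in 7 fits, those without control diet nonpregnant replicates 2 or 3, postpartum replicate 3 of either diet or any Western diet nonpregnant library. Hmox1 held only without replicate 1 of control diet nonpregnant, Western diet nonpregnant or Western diet postpartum hearts. Fibroblast, macrophage and endothelial marker sums, given above, were also higher postpartum on the control diet without overlap. Not all fibroblast markers followed their sum, and the endothelial gap was narrow. The part of these sums in the target gene levels was not tested.

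Split by diet, 1 AP-1 target passed postpartum on the control diet, Tnc at 1.5 ± 0.27 (SE, log2 scale, edgeR adjusted p = 0.0436), and 4 passed on the Western diet. These were Thbs1 at 1.88 ± 0.30, Ccl2 at 1.69 ± 0.31, Tnc at 1.67 ± 0.28 and Hmox1 at 0.79 ± 0.16 (edgeR adjusted p = 0.0271, 0.0311, 0.0271 and 0.0447). Over the 12 fits without 1 library, Tnc on the control diet held only without control diet postpartum replicate 2 or Western diet postpartum replicates 1 or 2, with an adjusted p up to 0.188. On the Western diet, Thbs1 and Ccl2 were lost without the same 5 libraries as Fosl2, Tnc without any nonpregnant library or postpartum replicate 3 of that diet, and Hmox1 held only without control diet nonpregnant replicate 1 or Western diet postpartum replicate 1, with adjusted p up to 0.194. Western diet postpartum against control diet nonpregnant hearts called 4, Nppb at 1.85 ± 0.44, Tnc at 1.58 ± 0.28, Thbs1 at 1.53 ± 0.29 and Hmox1 at 0.79 ± 0.16 (edgeR adjusted p = 0.0431, 0.0120, 0.0182 and 0.0244). Of these, Tnc held in all 12 such fits. Thbs1 and Hmox1 were lost without control diet nonpregnant replicates 2 or 3, and without Western diet postpartum replicate 1 and 3 respectively, with adjusted p up to 0.0910. Nppb held only without replicate 1 of either control diet group or Western diet postpartum replicate 2, with an adjusted p up to 0.189. The diet comparisons and the interaction called 0 AP-1 targets in edgeR.

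Of 16 MYC target genes, 1 passed: Rrp12, which encodes a ribosome assembly factor. It stood at 19.2, 19.9 and 25.5 CPM in Western diet nonpregnant and at 47.1, 29.2 and 45.3 CPM in Western diet postpartum hearts, and rose by 0.91 ± 0.15 (SE, log2 scale, edgeR adjusted p = 0.0271). The order of its postpartum libraries was not that of Myc, which was highest in replicate 2 where Rrp12 was lowest. Rrp12 also passed against control diet nonpregnant hearts at 0.68 ± 0.15 and averaged over the diets at 0.58 ± 0.11 (edgeR adjusted p = 0.0303 and 0.0190). Its Western diet call was lost without the same 5 libraries as that of Fosl2, with an adjusted p up to 0.118. The second was lost without control diet nonpregnant replicates 2 or 3 or Western diet postpartum replicates 1 or 3, with an adjusted p up to 0.139. The averaged call was lost without control diet nonpregnant replicate 3, Western diet nonpregnant replicate 2 or Western diet postpartum replicate 1, with an adjusted p up to 0.0571. None of the 10 tested MYC network partners passed in any of the 8 comparisons (edgeR); the lowest p belonged to Mxi1, a MYC antagonist, at 0.37 ± 0.08 between the diets postpartum (edgeR adjusted p = 0.0536).

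None of 18 other immediate early transcription factors and none of 27 early feedback inhibitors and effectors passed in any of the 8 comparisons in edgeR. At most 5 and 8 of them had an unadjusted p under 0.05, both for the averaged postpartum effect, beside 17.6% of all genes. The first list also had 5 postpartum on the control diet, beside 12.5%, and the second 8 on the Western diet, beside 14.7%. Closest in the first list was Klf10 at 0.52 ± 0.12 for the averaged diet effect (SE, log2 scale, edgeR adjusted p = 0.0538). Dusp5, a phosphatase that switches off ERK in the nucleus, stood at 9.54 ± 0.669 CPM in control diet nonpregnant and 4.85 ± 0.948 CPM in Western diet nonpregnant hearts (SD, n = 3), an estimate of -0.98 ± 0.22 that did not pass (edgeR adjusted p = 0.175). Among 14 other AP-1 and bZIP partners, Atf4, the effector of the integrated stress response, was higher on the Western diet postpartum by 0.37 ± 0.08 and averaged over pregnancy states by 0.28 ± 0.05 (SE, log2 scale, edgeR adjusted p = 0.0425 and 0.0236). The first held only without control diet nonpregnant replicates 1 or 3 or Western diet postpartum replicate 2, with an adjusted p up to 0.189. The second was lost without replicate 2 of either nonpregnant group, control diet postpartum replicate 1 or Western diet postpartum replicates 1 or 3, with an adjusted p up to 0.0751. Of 23 upstream kinases and activators, Mapk14, which encodes p38 alpha, fell by 0.20 ± 0.05 postpartum averaged over the diets (SE, log2 scale, edgeR adjusted p = 0.0457). Mapk3, the gene of ERK1, was higher by 0.23 ± 0.06 in Western diet postpartum than in control diet nonpregnant hearts (edgeR adjusted p = 0.0496). The call of Mapk14 held only without replicate 1 of either nonpregnant group or Western diet postpartum replicate 2, with an adjusted p up to 0.126. That of Mapk3 was lost in all 12 fits without 1 library, with an adjusted p from 0.0504 to 0.140.

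**Figure D4:**
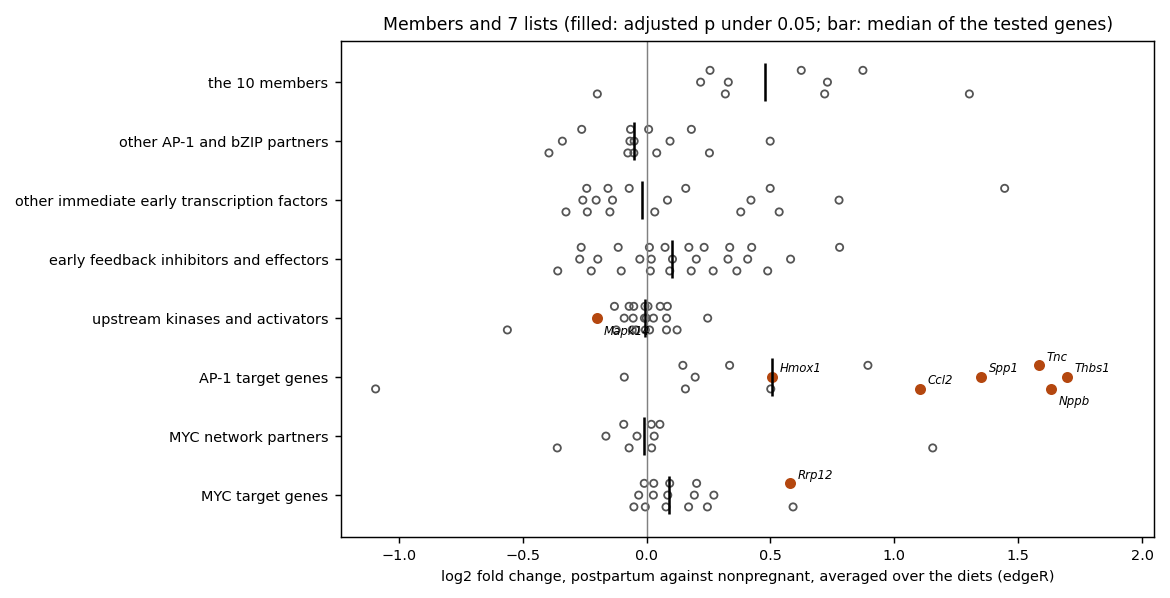
Log2 fold change, postpartum against nonpregnant averaged over the diets (x axis, edgeR), for the 10 members and 7 gene lists (rows); each circle is 1 tested gene, filled where the adjusted p was under 0.05, and the bar is the row's median. The members have a median of 0.48 (0.26 without control diet postpartum replicate 1) and no filled circle, and the AP-1 target genes a median of 0.50 with 6 filled circles. Members and lists were chosen with earlier results of these data known.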

How the data were processed

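The data are deposited counts of 12 heart libraries, 3 per group, grouped by diet and pregnancy state in their labels. The authors' files hold raw read counts per gene, whole numbers with no normalization, with coordinates and a summed exon length in bases, per the file headers. Per the submitters' processing notes, the tools were STAR 2.5.2b, FastQC and featureCounts (Subread 1.5.2), on GRCm38 (mm10). No source used here gives the annotation release or the strand setting, and overlapping or antisense genes may share counts. Per the labels' protocols, a NEBNext Ultra kit made the libraries from RNA extracted by Qiagen RNeasy. The design text reports the loss of the raw data.

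Identifiers were paired with symbols through a table of gene names, and 345 genes without a symbol (0.0218% to 0.0248% of counts) stayed in the tests unnamed. Genes passed filterByExpr (minimum count 10, minimum total 15). CPM and RPKM use TMM-scaled library sizes and the files' lengths. One edgeR 4.0.16 quasi-likelihood model in R 4.3.3 with a mean per group gave 8 comparisons by two-sided F tests, Benjamini-Hochberg adjusted over 15476 genes in each, at a threshold of 0.05. The SE was taken from F, as the size of the log2 fold change divided by its root. Folds of a member within 1 standard error of 0 in the fit of all libraries are not printed. Correlations used log2 CPM with a prior count of 2. No 2 libraries of a group agreed within sampling noise. The method was tested on simulated data for Western diet postpartum against nonpregnant hearts, over 15299 genes: edgeR recovered 40 of 67 genes changed 1.5-fold, 51 of 67 changed 2-fold and 62 of 66 changed 4-fold, with 10 calls among 15276 unchanged genes (DESeq2 44, 53 and 62, with 20).

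Alternatives were DESeq2 1.42.0, limma-voom (limma 3.58.1), edgeR with DESeq2 size factors, edgeR without the low-count filter, leaving out control diet postpartum replicate 3 with control diet nonpregnant replicate 1, and leaving out each library. A filter of 1 CPM in 3 libraries was added after seeing the data. The members, the lists and the tests were chosen with earlier results of these data known. The text names all members, every list gene past the threshold or else genes with the smallest p of a list, and the 10 genes most like Fos. Promoter sequences are from RefSeq.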

Additional observations from a re-analysis of the deposited data

Results flagged for a closer look

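Each member was checked for a library standing apart from the other 5 in the 6 postpartum, 6 nonpregnant, 6 control diet and 6 Western diet libraries, by the gap to its nearest neighbour as a share of the range (Dixon's 95% critical value 0.625 for 6 values). Of 40 sets checked, 9 had such a library, where chance gives about 5%, or 1 in 20, and the sets share libraries. In 8 of the 9 it was control diet postpartum replicate 1. Egr1 stood there at 106 CPM, with 26.5 CPM the next highest postpartum and 25.2 CPM the next highest control diet library. Fos stood at 9.43 CPM, next to 3.51 and 3.57 CPM in the same sets. For Junb, 48 CPM compared with 26.6 and 28.8 CPM. For Ier2, 30.2 CPM compared with 17.2 and 18.3 CPM. The ninth was Atf3 in control diet nonpregnant replicate 1, at 5.79 CPM, with 3.74 CPM the next highest of the 6 nonpregnant libraries. No member's postpartum difference passed a test of the difference between the diets.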

How the results depend on the processing

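No paired analysis was possible because the labels give no replicate number that groups share: the numbers used here only name libraries. Depth was lowest for Fosb, with 4 to 44 counts per library. Of 55 member differences larger than 1 standard error, all kept their direction and their side of the threshold under DESeq2 size factors and under limma-voom. DESeq2 called 5 that edgeR did not, and leaving out the pair of control libraries 1. In the fits without 1 library, 640 of 660 values kept both.

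Without a filter on low counts 38 more passed. In that edgeR fit the prior degrees of freedom were infinite (5.74 with the filter), so each gene's own spread between libraries was replaced by the trend. It called 744 genes and 5 members postpartum on the control diet, 933 and 6 on the Western diet, 454 and 4 between the diets in nonpregnant hearts, 1048 and 6 postpartum, 1315 and 4 between the groups farthest apart in design (postpartum on the Western diet, nonpregnant on the control diet), 506 and 3 for the interaction, 1262 and 9 for the averaged postpartum effect and 1029 and 5 for the averaged diet effect.

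DESeq2 called, in the same order, 184, 361, 95, 456, 779, 43, 615 and 485 genes, with 3 members on the Western diet (Fosl2, Atf3 and Myc), 1 between the groups farthest apart in design (Myc) and 2 for the averaged postpartum effect. Why it called more was not tested. Without control diet postpartum replicate 3 and nonpregnant replicate 1, 74 genes were called postpartum on the control diet, 15 between the diets in nonpregnant hearts and 1 for the interaction, and 1 member (Myc) between the groups farthest apart in design. The filter of 1 CPM, under which Fosb was not tested, gave 5 genes between the diets in nonpregnant hearts.

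Over the 12 fits without 1 library, genes called ranged from 0 to 205 postpartum on the control diet, 0 to 472 on the Western diet, 0 to 18 and 30 to 490 for the diets in nonpregnant and postpartum hearts, 87 to 764 between the groups farthest apart in design, 0 to 53 for the interaction, 52 to 567 for the averaged postpartum and 83 to 378 for the averaged diet effect. Members called ranged from 0 to 1 on the control diet, 0 to 2 on the Western diet, and 0 to 1 for the averaged postpartum effect and for the pair of groups farthest apart in design.

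Fos ranged from -0.15 to 1.13, Junb from -0.27 to 0.53 and Ier2 from -0.027 to 0.54 (log2) postpartum on the control diet. Between the diets postpartum, Fos ranged from -0.93 to 0.35, Egr1 from -1.58 to 0.12 and Ier2 from -0.53 to 0.031. All 6 turned their sign without control diet postpartum replicate 1. Taken as deviations from group means, the correlation of Fos with Junb was 0.85 and no longer passed, and those with Jund (-0.084), Atf3 (-0.20) and Myc (-0.34), not called before, turned sign; the cause was not tested.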
